A study of Mus musculus with 6 samples.

Results

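Mitochondrial ribosomal protein genes were examined in the spleen of mice exposed to perfluorooctane sulfonate (PFOS), a persistent fluorinated surfactant. They were the probe sets that the platform annotation assigned to 1 gene symbol beginning with Mrpl (large subunit) or Mrps (small subunit) and a number. The rule found 156 of the 45101 probe sets on the array, 104 for the large and 52 for the small subunit, which stand for 76 genes (47 and 29). The rule used names only and no measured value.

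The mitochondrial ribosome translates the few messages encoded by mitochondrial DNA, all of them for core subunits of the respiratory chain and ATP synthase. Its RNAs come from mitochondrial DNA, whereas all its proteins are encoded in the nucleus, made in the cytosol and imported. It descends from a bacterial ribosome, and it has lost RNA and gained proteins with no bacterial counterpart. In the spleen, dividing lymphocytes and red cell precursors, which need mitochondria for haem synthesis, are among the cells that make new mitochondria.

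The arrays came from 6 Balb/c mice aged 6 to 8 weeks, with 1 Affymetrix Mouse430_2 array per spleen. The 3 control mice are labelled as exposed to nothing, and the labels do not say whether they were given a vehicle. The other 3 received PFOS by stomach tube at a daily 10 mg per kg body weight over 3 weeks. All 6 are labelled female, although the Y-linked gene Eif2s3y lay between 9.62 and 9.91 on every array and Xist between 5.62 and 5.86, which goes against that label in both groups. The labels name the arrays biological replicates, and p-values measure only the spread between them, which may be technical.

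Values are RMA log2 intensities, which RMA puts on a common distribution, and a change is read against that distribution. Correlations over the 13101 genes tested were 0.9985 to 0.9991 within groups and 0.969 to 0.970 between them. The 24 probe sets for bacterial transcripts added before labelling averaged 6.65 ± 0.0053 in control and 6.11 ± 0.023 in PFOS (SD, n = 3; two-sided exact permutation p = 0.1, the smallest that 3 against 3 can give). Spleen markers were present, and the log2 of the summed level of 12 B cell markers was 14.21 to 14.23 in control and 14.62 to 14.64 in PFOS (10 called higher). For 12 T cell markers it was 12.66 to 12.68 and 13.20 to 13.21 (11 higher), and for 12 red pulp macrophage markers 14.54 and 14.87 (10 higher). All 17 red cell precursor genes were called lower (15.75 to 15.77 in control and 14.47 to 14.49 in PFOS), as were all 19 mitosis genes (at most 15.01 in control and at most 13.53 in PFOS). Of 16 hepatocyte genes, 15 were called lower (12.87 to 12.88 and 9.38 to 9.46). The part of these markers in the results below was not tested, and in whole tissue fewer cells of a type and less RNA per cell cannot be told apart.

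Mitochondrial ribosomal protein transcripts changed by small amounts in both directions, with more falls than rises. Limma, a linear model fitted over all genes with Benjamini-Hochberg adjustment, called 49 of the 76 genes (64.5%) at an adjusted p under 0.05, against 66.6% of all genes tested. Of the 76, 33 were lower in PFOS and 16 higher (43.4% and 21.1%), where 26.0% of all genes were lower and 40.6% higher. That split turned to 0 lower and 74 higher when arrays were scaled on the labelling transcripts, which moved the median of all genes from 0.051 to 0.59 on the log2 scale. The median change of the 76 genes was -0.055 in the deposited values, 0.11 under the median of all genes. Scaling on the labelling transcripts moves all genes by one amount, so it cannot change that gap. The median of members minus that of all genes was -0.091 with quantile normalization and -0.077 with the mean over probe sets. With arrays scaled on cytosolic ribosomal protein genes, 46 members were lower and 6 higher.

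The changes were small. The widest fall was 1.37-fold and the widest rise 1.20-fold, and no member changed 2-fold, while 2.92% of all genes were called and at least 2-fold lower. Of the 76 members, 17 (22.4%) were called and under 1.1-fold, where 12.9% of all genes were. All 76 genes had a probe set above the filter on low values, so no member is missing from these counts. The groups did not overlap for 76.3% of the members, with PFOS lower for 39 and higher for 19. Of all genes tested 71.1% did not overlap, with 27.8% lower and 43.2% higher. Leaving out single arrays gave 26 to 33 lower and 9 to 14 higher genes. The higher count fell to 10 without control replicate 2, control replicate 3 or PFOS replicate 1, and to 9 without PFOS replicate 3. Of the 49 calls, 34 were kept in all 6 of these fits.

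**Figure D1:**
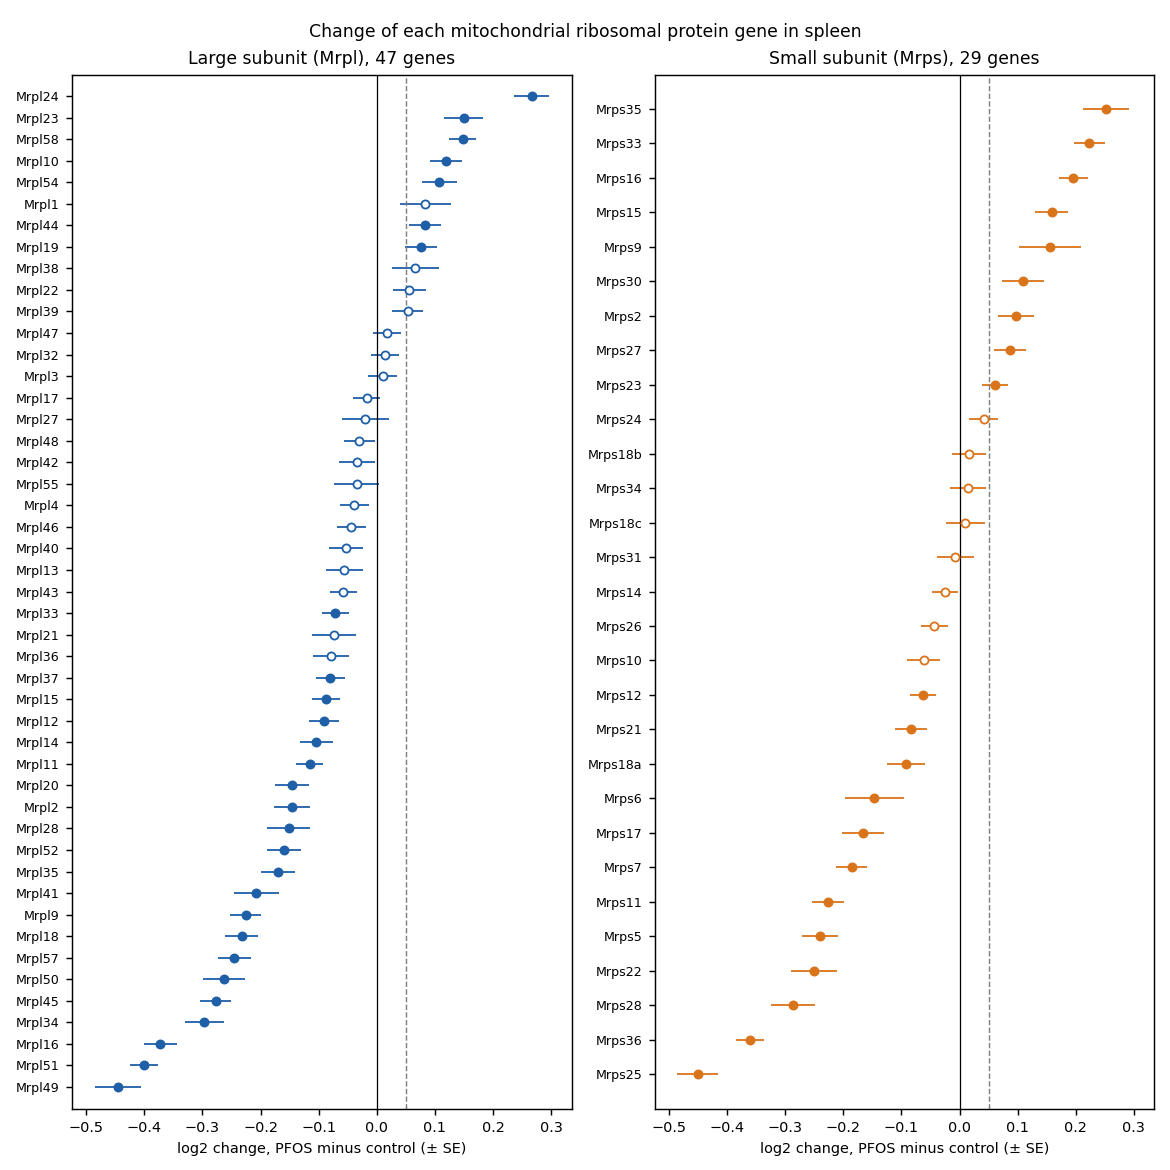
Change of each gene (log2, PFOS minus control, with limma's SE as bars, 3 arrays per group) for the large subunit on the left and the small subunit on the right; filled points are called at an adjusted p under 0.05 and the dashed line is the median of all genes tested (0.051). Points run from -0.45 to 0.27 in the deposited values; scaling on labelling transcripts adds 0.53 to every point and puts all of them above 0.

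By the brightest probe set of each gene, the largest falls were those of Mrps25 and Mrpl49, followed by Mrpl51, Mrpl16 and Mrps36. This order depends on the probe set. Mrpl28 changed by -0.15 by its brightest one (mean 9.30). Its other probe sets, nearly as bright (means 9.29 and 9.20), changed by -0.39 and -0.44, each called lower in a fit of all probe sets. Mrps25, a small-subunit protein with no bacterial counterpart, had log2 values of 8.31, 8.36 and 8.39 in control and 7.91, 7.85 and 7.95 in PFOS. The groups were well apart, and the change was -0.45 ± 0.035 (SE; limma adjusted p = 2.25e-05), or 1.37-fold lower. With the mean over its probe sets it was -0.13 (limma adjusted p = 0.018), a smaller fall than those of Mrpl49, Mrpl16 and Mrps36. Mrpl49, a large-subunit protein, was at 8.52, 8.46 and 8.53 in control and at 8.07, 8.12 and 7.99 in PFOS, 1.36-fold lower (limma adjusted p = 4.52e-05). Mrpl51 was at 10.29, 10.31 and 10.31 in control against 9.93, 9.89 and 9.90 in PFOS, a change of -0.40 ± 0.023 (limma adjusted p = 5.28e-06). Its size depended on the probe set: it was -0.26 with the mean over probe sets, and -0.12 (limma adjusted p = 0.012) without those whose name ends in _s_at, _x_at or _a_at. Mrpl49 and Mrpl51 are proteins that the mitochondrial ribosome gained after it left its bacterial ancestor.

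Mrpl16, whose bacterial relative lies beside the bound transfer RNAs, went from 8.80, 8.81 and 8.84 to 8.49, 8.43 and 8.42 (-0.37 ± 0.028). Mrps36 was at 8.88, 8.88 and 8.87 in control and 8.50, 8.55 and 8.50 in PFOS (-0.36 ± 0.025). Despite its name, the Mrps36 protein is known as a part of the oxoglutarate dehydrogenase complex of the tricarboxylic acid cycle. Genes of the other components of that complex, Ogdh, Dlst and Dld, changed by -0.38 ± 0.022, -0.37 ± 0.023 and -0.11 ± 0.024, each called lower, with Dlst at -0.22 by the mean over its probe sets. The next falls by size were Mrpl34 (-0.30), Mrps28 (-0.29), Mrpl45 (-0.28), Mrpl50 (-0.26) and Mrps22 (-0.25). Mrpl45 holds the ribosome to the inner membrane, and MRPS22 is mutated in human disorders of the respiratory chain.

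The largest rises were those of Mrpl24, Mrps35, Mrps33 and Mrps16. Mrpl24, whose bacterial relative sits at the mouth of the exit tunnel, was at 9.85, 9.81 and 9.87 in control and 10.07, 10.14 and 10.11 in PFOS, a change of 0.27 ± 0.030 (limma adjusted p = 0.00016). Mrps35 was at 7.84, 7.78 and 7.81 against 8.00, 8.06 and 8.14 (0.25 ± 0.040). Mrps33, at 9.22, 9.24 and 9.20 against 9.43, 9.47 and 9.43, rose by 0.22 ± 0.026. Neither of the last 2 proteins has a bacterial counterpart, and their groups did not overlap.

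Mrps16 went from 9.76, 9.77 and 9.73 to 9.94, 9.98 and 9.94 (0.20 ± 0.025; limma adjusted p = 0.000335), and human MRPS16 is another gene of respiratory chain disease. Smaller rises were called for Mrps15 (0.16), Mrps9 (0.16), Mrpl23 (0.15), Mrpl58 (0.15), Mrpl10 (0.12) and Mrps30 (0.11). Without probe sets whose name ends in _s_at, _x_at or _a_at, the calls of Mrps15 (0.019, limma adjusted p = 0.80) and Mrps9 (0.057, limma adjusted p = 0.21) were lost. That fit could not test 17 of the 76 members. Among them were Mrpl24, Mrps33, Mrps16 and Mrpl58, whose only probe set above the filter is an _a_at one. The mean over probe sets gave 0.087 for Mrps15. With arrays scaled on cytosolic ribosomal protein genes, Mrps9 (0.090), Mrpl23 (0.084), Mrpl10 (0.053) and Mrps30 (0.044) were not called. Mrps9 was also not called with arrays centred on their median. Mrpl58 is a peptidyl-tRNA hydrolase that became a fixed part of the ribosome, and its 6 values ran from 8.74 to 8.77 in control and from 8.90 to 8.91 in PFOS. Mrps9 lost its call without control replicate 2, control replicate 3, PFOS replicate 1 or PFOS replicate 3 (limma adjusted p from 0.056 to 0.11). Mrps30 lost it without control replicate 1, control replicate 3, PFOS replicate 2 or PFOS replicate 3 (0.073 to 0.093).

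**Figure D2:**
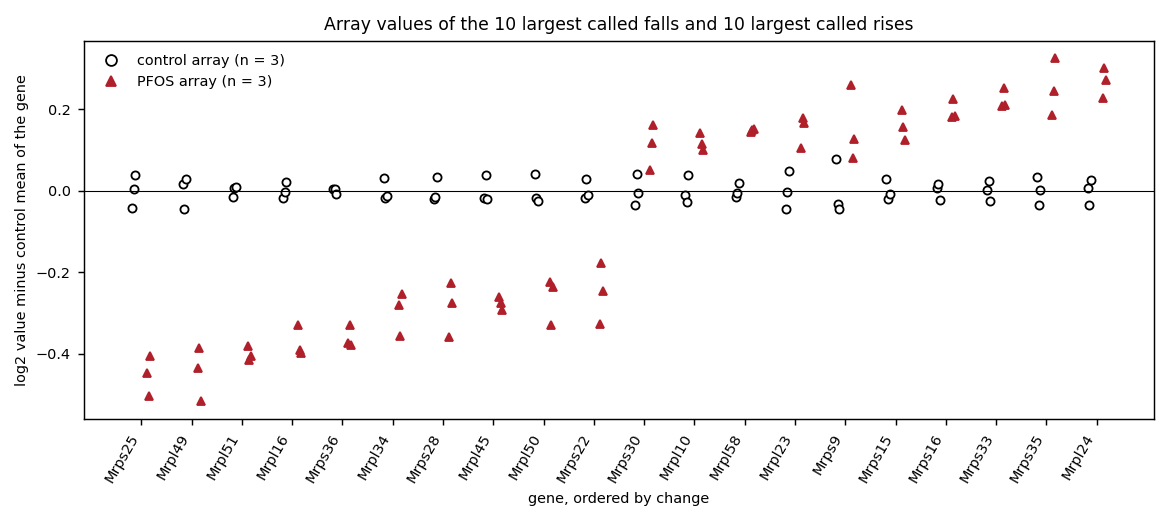
Log2 value of each array minus the control mean of the gene, for the 10 largest called falls and the 10 largest called rises; circles are the 3 control arrays and triangles the 3 PFOS arrays. In the deposited values no PFOS triangle overlaps the control circles of its gene; scaling on labelling transcripts turns the sign of all 10 falls.

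Members were also read by their place in the ribosome. In the stalk that recruits translation factors, Mrpl10, the base on which Mrpl12 is mounted, was higher (7.85, 7.84 and 7.91 in control, 8.01, 7.98 and 7.97 in PFOS). Mrpl12, which also binds the mitochondrial RNA polymerase, was lower by a narrow margin, at 9.58, 9.58 and 9.60 in control and 9.47, 9.53 and 9.49 in PFOS (-0.090 ± 0.026; limma adjusted p = 0.017). Mrpl11, of the factor-binding region, was lower too by its brightest probe set (-0.12 ± 0.023), but the mean over its probe sets gave 0.021 and was not called. Mrpl12 lost its call without control replicate 3 or PFOS replicate 3 (limma adjusted p = 0.056 and 0.053), and with quantile normalization (0.079), as did Mrps12 and Mrps18a, described below, with the latter (0.16 and 0.12). On the opposite side, Mrpl1, of the stalk that helps spent transfer RNA leave, was not called (0.084 ± 0.044) and passed without PFOS replicate 2 (limma adjusted p = 0.029).

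Among proteins whose bacterial relatives ring the exit tunnel, Mrpl23 and Mrpl24 were higher, and Mrpl22 (0.056), Mrpl17 (-0.018) and Mrpl47 (0.018) were not called. This set was chosen after its values were seen. In the small subunit, Mrps12, of the centre that checks codon and anticodon, was called lower (-0.063 ± 0.022; limma adjusted p = 0.038). That call was lost in 5 of the 6 fits without 1 array, all but the one without PFOS replicate 1 (limma adjusted p from 0.063 to 0.11). Mrps7, which organizes the head of the subunit, fell by 0.19, with values of 8.50 to 8.54 in control and 8.31 to 8.36 in PFOS. The RNA-binding pentatricopeptide protein Mrps27 was higher (0.087 ± 0.027) and lost its call without control replicate 1, control replicate 2, PFOS replicate 1 or PFOS replicate 3 (limma adjusted p from 0.055 to 0.083), and with a trended, robust variance prior (0.067) or scaling on cytosolic ribosomal protein genes (0.53).

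Mrps18a, Mrps18b and Mrps18c are paralogs. Mrps18a was called lower (-0.092 ± 0.033, limma adjusted p = 0.039), a call lost without control replicate 2, control replicate 3, PFOS replicate 1 or PFOS replicate 2 (limma adjusted p from 0.097 to 0.12). Mrps18b (0.016 ± 0.029) and Mrps18c (0.010 ± 0.033) were not called, and the differences between the paralogs were not tested. Further disease genes of the ribosome, Mrpl3 (0.010 ± 0.025) and Mrps34 (0.014 ± 0.031), were not called. Mrpl41 fell by 0.21, from 9.97, 9.90 and 9.87 in control to 9.76, 9.65 and 9.72, but in a fit without probe sets whose name ends in _s_at, _x_at or _a_at its change was -0.020 (limma adjusted p = 0.59).

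The large and the small subunit were then compared. Of 47 large-subunit genes, 21 were lower and 7 higher, with a median change of -0.058. Of 29 small-subunit genes, 12 were lower and 9 higher, with a median of -0.025. The shares of lower genes were close, at 44.7% and 41.4%, while those of higher genes were 14.9% and 31.0%. Of all genes tested 26.0% were lower and 40.6% higher. The mean log2 value of the large-subunit genes was 8.87, 8.86 and 8.86 in control and 8.80, 8.77 and 8.79 in PFOS. For the small subunit it was 8.64, 8.63 and 8.63 in control and 8.60, 8.59 and 8.59 in PFOS.

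The large mean minus the small mean was 0.228, 0.223 and 0.231 in control and 0.199, 0.182 and 0.204 in PFOS. The groups did not overlap and the difference of their means was -0.032. No test was run on this score, since the genes were chosen with results of these data known. The direction depended on the probe sets. Without the probe sets marked _s_at, _x_at or _a_at, which can match several transcripts or genes, 59 members remained and the difference was 0.015. Over the 43 members whose reported probe set is a plain one, it was 0.018. Mrps30 and Mrps18a lie in the large subunit in solved structures; moving them there and leaving out Mrps36 gave -0.037.

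**Figure D3:**
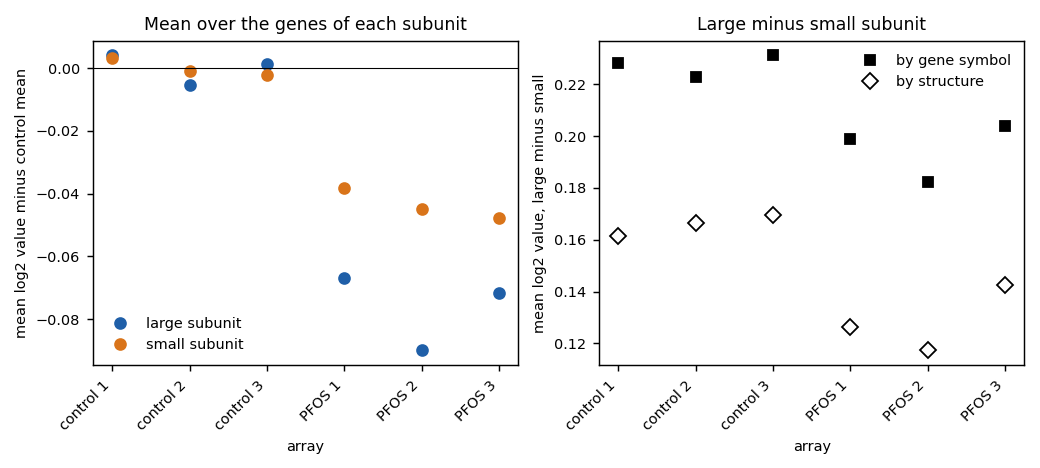
Left, mean log2 value over the 47 large-subunit and 29 small-subunit genes on each array, minus the control mean. Right, large minus small mean on each array, by gene symbol (squares) and with Mrps30 and Mrps18a moved and Mrps36 left out (diamonds); PFOS arrays lie below control arrays in each, a difference of -0.032 by symbol that turned to 0.015 when the _s_at, _x_at and _a_at ones were left out.

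Grouping by descent gave a similar picture. Of 47 members with a bacterial counterpart, 22 were lower and 8 higher (median -0.063). Of 29 members specific to mitochondria, 11 were lower and 8 higher (median -0.044). The widest spread was among the 11 mitochondria-specific members with small-subunit names, 3 lower and 5 higher. Their changes ran from -0.45 (Mrps25) to 0.25 (Mrps35). The SD of these changes was 0.23, against 0.16 for all 76 members and 0.39 for all genes tested. The lower ones include Mrps36 (-0.36), known from the oxoglutarate dehydrogenase complex. The higher ones include Mrps30 (0.11), which lies in the large subunit. By the mean over its probe sets Mrps25 was at -0.13.

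Probe sets of a gene did not always go the same way. With all 45037 non-control probe sets fitted with no filter, limma called 43 of the 156 member probe sets lower and 27 higher, where 19.3% of all probe sets were lower, 30.2% higher and 49.5% called in either direction. Of the 156, 23 lay under the filter floor of 5.62. For 3 genes, probe sets above the floor were called in opposite directions. By a wider definition, 5 genes had a called probe set above the floor opposite in sign to the reported one. They were Mrps25, Mrps5, Mrpl15, Mrpl44 and Mrps26, whose reported change (-0.044) was not called. The reported probe set of Mrps25, the brightest, fell by 0.45, while 1 of its other 2, close to the floor at a mean of 5.89, was higher by 0.29. Mrps5, a small-subunit protein with a bacterial counterpart, had 2 probe sets lower and 2 higher, and its call was lost when they were averaged (limma adjusted p = 0.98). Mrpl15 had 8 probe sets, of which 2 were called lower, 3 higher and 3 not.

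Mrpl44, of the large subunit and related to ribonuclease III, was called higher by its brightest probe set (0.083) in the fit over genes. That call was lost when any array but control replicate 1 was left out (limma adjusted p from 0.053 to 0.13). In the fit of all probe sets it was not called (limma adjusted p = 0.078), nor was a probe set nearly as bright (0.042). The mean over probe sets was called lower (-0.068, limma adjusted p = 0.031). Its 2 dimmer probe sets were lower (-0.20 and -0.19), so its direction depends on the probe set. Of the 76 genes, 34 had only 1 probe set and could not be checked this way. A probe set shared by Nme3 and Mrps34, outside the rule, fell by 0.56, whereas the probe set of Mrps34 alone was not called. One shared by Ccdc142 and Mrpl53 fell by 0.35, and which of the genes it reports cannot be told apart. Those shared by Gm6238 and Mrpl30 changed by 0.074 and -0.093 and were not called. Neither Mrpl30 nor Mrpl53 is among the 76 genes.

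**Figure D4:**
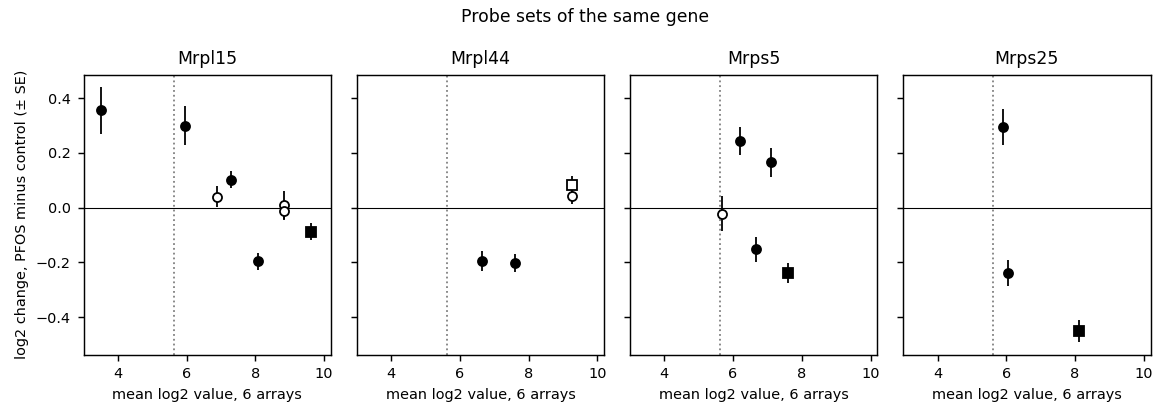
Change of each probe set (log2, PFOS minus control, ± SE, 3 arrays per group) against its mean level over the 6 arrays for Mrpl15, Mrpl44, Mrps5 and Mrps25, in the fit of all probe sets. Squares are the probe sets reported for the gene, filled points are called and the dotted line is the filter floor (5.62); each gene has points on both sides of 0 in the deposited values.

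Promoters of the members were read from RefSeq sequences (build GRCm38.p6, 250 bases before to 50 after the start), which gave 73 windows for 67 of the 76 genes. Those with no entry were Mrpl4, Mrpl13, Mrpl15, Mrpl19, Mrpl38, Mrpl54, Mrps28, Mrps34 and Mrps35. Motifs known for genes of mitochondria and ribosomes were searched on both strands. The NRF1 core TGCGCA was in 30.1% of member windows and in 12.5% of the 13462 windows of all genes tested. The ETS motif CCGGAAG, which the factor GABP binds, was in 34.2% and 15.8%, and the YY1 motif AAGATGGC in 16.4% and 4%. The shorter YY1 core CCATNTT, whose reverse overlaps the longer one, was in 31.5% and 14.5%, and CCAAT in 39.7% and 37%. The full NRF1 palindrome was in 3 member windows, or 4.11%, and in 1.83% of all. As searched it does not contain the core, and the Mrpl39 window held the palindrome without the core.

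The motifs were found in members of each direction. Some genes have several windows, and both Mrps16 windows hold the same NRF1 core, so genes were counted here. The NRF1 core was in a window of 8 of 31 lower genes, 7 of 13 higher genes and 6 of 23 genes not called. The ETS motif was found for 10, 5 and 10 of the same genes and AAGATGGC for 7, 1 and 4. No test was run on these counts, and a match is no evidence of binding. Bases before the start are shown for 3 lower genes and 1 higher gene, each with NRF1 (full or core) or ETS letters in capitals. They are from chr3:94443186-94443335 (Mrpl9), chr6:125192050-125192199 (Mrpl51), chr11:97315566-97315715 (Mrpl45) and chr11:115403602-115403751 (Mrpl58), all on the plus strand and 150 bases long.
Mrpl9: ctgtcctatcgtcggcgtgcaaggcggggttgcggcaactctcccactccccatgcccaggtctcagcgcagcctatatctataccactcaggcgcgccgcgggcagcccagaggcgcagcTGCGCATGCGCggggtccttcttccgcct
Mrpl51: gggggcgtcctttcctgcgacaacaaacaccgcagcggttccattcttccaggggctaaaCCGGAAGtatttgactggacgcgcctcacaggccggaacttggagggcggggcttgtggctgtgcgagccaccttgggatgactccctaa
Mrpl45: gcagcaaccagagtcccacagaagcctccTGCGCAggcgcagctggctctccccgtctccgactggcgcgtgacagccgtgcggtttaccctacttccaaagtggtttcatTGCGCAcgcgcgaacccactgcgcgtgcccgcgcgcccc
Mrpl58: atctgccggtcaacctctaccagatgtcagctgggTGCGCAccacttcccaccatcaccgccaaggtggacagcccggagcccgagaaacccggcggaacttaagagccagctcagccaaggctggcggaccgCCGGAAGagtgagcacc

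Mrps11 and Mrpl46 are read in opposite directions from starts 42 bases apart on chromosome 7, the only such pair within 1000 bases among members with a promoter entry. The 41 bases between the starts, chr7:78783090-78783130, are shown on the plus strand, on which Mrps11 is read; they hold none of the motifs searched.
Mrps11 and Mrpl46: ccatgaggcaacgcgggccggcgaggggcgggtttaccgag
Mrps11 was at 7.84, 7.87 and 7.91 in control and 7.65, 7.66 and 7.63 in PFOS, a fall of 0.23 on the log2 scale (limma adjusted p = 0.000251). Mrpl46 was at 8.43, 8.43 and 8.45 in control and 8.39, 8.37 and 8.42 in PFOS. Its groups did not overlap either, but the change of -0.044 ± 0.025 was not called (limma adjusted p = 0.16). The difference between these neighbours was not tested.

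Ribosomal proteins named outside the rule gave both calls and misses. Dap3, a GTP-binding small-subunit protein also known from cell death, was at 9.37, 9.37 and 9.36 in control and 9.11, 9.06 and 9.09 in PFOS (-0.28 ± 0.024; limma adjusted p = 3.98e-05). Gadd45gip1, a large-subunit protein near the tunnel exit, was at 6.62, 6.70 and 6.71 against 6.30, 6.35 and 6.16 (-0.41 ± 0.053, and -0.23 with the mean over its probe sets). Chchd1 (0.081 ± 0.039) and Ptcd3 (-0.018 ± 0.034) were not called, although Chchd1 passed with quantile normalization (0.13, limma adjusted p = 0.013) and Ptcd3 with scaling on cytosolic ribosomal protein genes (-0.084, limma adjusted p = 0.046).

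Other genes that serve mitochondrial translation were split. Of 13 translation factors, 4 were lower and 4 higher (median -0.043). That is 30.8% each way, where all genes tested gave 26.0% lower and 40.6% higher. The elongation factors Gfm1 and Tufm were lower (-0.27 ± 0.028 and -0.24 ± 0.036), as was Letm1, an inner membrane ion exchanger (-0.45 ± 0.039, but -0.12 with the mean over its probe sets). Guf1, a relative of the elongation factors, was higher (0.22 ± 0.025), as was the initiation factor Mtif2 (0.19 ± 0.029), named with Tufm after their values were seen. Of 23 genes that assemble the ribosome or modify its RNA, 12 were higher and 3 lower (median 0.088). Eral1, a chaperone of small-subunit RNA, rose by 0.47 ± 0.029 by an _a_at probe set, but was at 0.099 and not called (limma adjusted p = 0.052) without such probe sets. Mettl17, of small-subunit assembly, rose by 0.44 ± 0.026. The RNA methyltransferase Mrm1 had values of 8.69, 8.68 and 8.67 in control and 7.96, 7.97 and 8.06 in PFOS, a change of -0.68 ± 0.032 (limma adjusted p = 1.72e-06), wider than that of any ribosomal protein of the rule.

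For the lists that follow, all genes tested gave 40.6% higher and 26.0% lower. Of 14 genes of mitochondrial transcription and DNA upkeep, 9 were higher and 3 lower (64.3% and 21.4%, median 0.11). Mterf2 rose by 0.56 ± 0.037 and the DNA polymerase Polg by 0.28 ± 0.028 (0.13 with the mean over its probe sets), while Lrpprc, which stabilizes mitochondrial messages, fell by 0.39. Respiratory chain and ATP synthase genes, which include partners of what this ribosome makes, had 43 lower and 12 higher of 79 (median -0.096). Ndufb9 changed by -0.45 ± 0.023 and Cox6b2 by -0.96 ± 0.052, and Cox7a2l by 0.43 ± 0.023. Of 16 tricarboxylic acid cycle genes, 6 were lower and 3 higher (median 0.00061), with Idh3a at -0.32 ± 0.024, and at -0.091 with the mean over its probe sets. Of 22 protein import genes, 8 were lower and 5 higher (median -0.025), with the chaperonin Hspd1 at -0.62 ± 0.030, Timm8a1 at -0.39 ± 0.032 and Tomm7 at 0.24 ± 0.023. Tomm7 was at 0.075 with the mean over its probe sets and at 0.11 without _s_at, _x_at and _a_at ones.

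The cytosolic ribosome, built of other proteins, had the opposite split to the mitochondrial one: 27 of 44 genes were higher and 7 lower (median 0.090), against 16 higher and 33 lower of 76. Of all genes tested 40.6% were higher and 26.0% lower. Rpl11 rose by 0.35 ± 0.025 and could not be tested without _s_at, _x_at and _a_at probe sets. Rps19 (0.26) and Rpl7 (0.24) were higher by their reported probe sets, and both turned when the _s_at, _x_at and _a_at ones were left out (Rps19 -0.088 and Rpl7 -0.086). Nucleolar genes that assemble cytosolic ribosomes were mostly lower, 16 of 28 against 3 higher (median -0.11). Bysl changed by -0.64 ± 0.037, Nop58 by -0.58 ± 0.036 and nucleolin (Ncl) by -0.43 ± 0.027. With scaling on the labelling transcripts, the medians of these lists, other ribosomal proteins included, were all above 0, from 0.38 to 0.65. No test of one list against another was run.

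**Figure D5:**
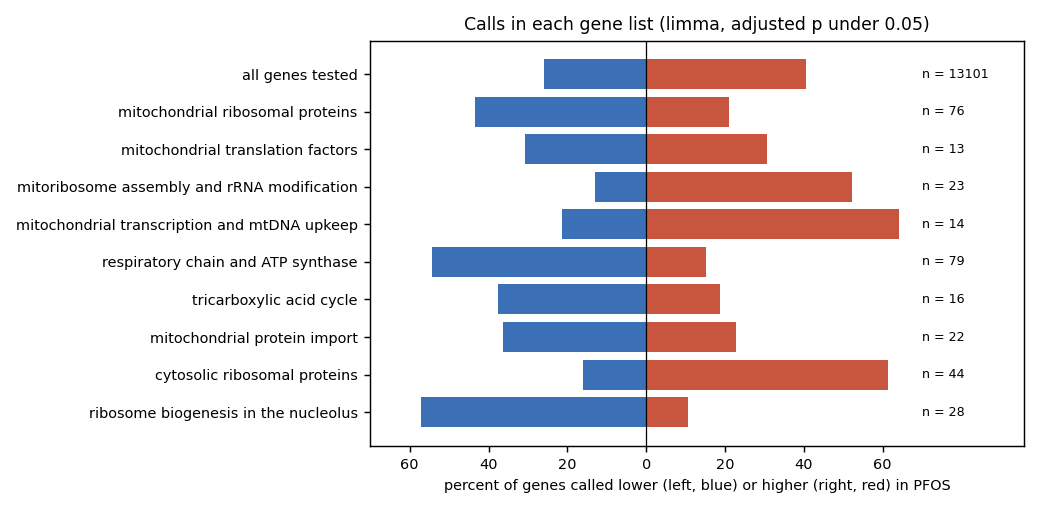
Percent of genes in each list called lower (left) or higher (right) in PFOS by limma at an adjusted p under 0.05, with the number of genes measured; 3 control and 3 PFOS arrays. Of the mitochondrial ribosomal proteins 43.4% were lower and 21.1% higher, where all genes tested gave 26.0% and 40.6%; the lower calls of the ribosomal proteins went to 0 with scaling on labelling transcripts.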

How the data were processed

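Whole-spleen RNA of 3 control and 3 PFOS mice was measured on 6 arrays. The authors deposited log2 values from RMA, per the submitters' processing notes; for its version and any filter, nothing is stated in the labels. Array controls (64 probe sets) and 10092 probe sets without a single symbol were left out, as were those whose mean over the 6 arrays was under the 40th percentile (5.62). The probe set with the highest mean stood for its gene. Groups were compared with limma 3.58.1 (lmFit and eBayes, two-sided, Benjamini-Hochberg over 13101 genes) in R 4.3.3; errors of changes are limma's SE. The number of arrays limits the precision. The fit was tested on simulated data. Named members were the 10 largest called falls and rises, genes fixed by role, genes with opposed probe sets, other ribosomal proteins, and up to 3 genes per list by p. Members, lists and settings were chosen with earlier results of these data known. Alternatives covered filter, scaling, variance prior, array weights, probe sets, threshold, replicate block and leaving out each array.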

Additional observations from a re-analysis of the deposited data

How the results depend on the processing

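Scaling and the choice of probe set moved the results most. With scaling on the labelling transcripts, 0 members were lower and 74 higher, and the changes of called falls turned: Mrps25 0.084, Mrpl49 0.089, Mrpl51 0.13, Mrpl16 0.16, Mrps36 0.17, Mrpl34 0.24, Mrps28 0.25, Mrpl45 0.26, Mrpl50 0.27, Mrps22 0.28, Mrpl12 0.44, Mrpl11 0.42, Mrps12 0.47, Mrps7 0.35, Mrps18a 0.44, Mrpl41 0.33, Mrpl15 0.45, Mrps5 0.29, Dap3 0.25, Gadd45gip1 0.13, Letm1 0.083, Gfm1 0.27, Lrpprc 0.15, Ndufb9 0.081, Ogdh 0.15, Dlst 0.16, Idh3a 0.22, Timm8a1 0.15 and Ncl 0.11, with the uncalled Ptcd3 at 0.52. It shifts all genes by one amount. The number of all genes called was 8730 and ran from 6975 (adjusted p under 0.01) to 12788 (labelling transcripts), of which 94.3% were higher with the latter, 44.9% with scaling on cytosolic ribosomal proteins and 61.0% in the deposited values. The count of higher members was 6 with scaling on cytosolic ribosomal proteins, 9 without _s_at, _x_at and _a_at probe sets (fewer members tested) and 8 at an adjusted p under 0.01, and 9 to 14 when single arrays were left out. The large-minus-small difference was -0.046 with the mean over probe sets, -0.030 to -0.042 without single arrays, 0.015 when those marked probe sets were left out and 0.018 over plain probe sets only, which was chosen after seeing the data; the cause was not tested. Mean over probe sets turned the changes of Mrpl11 (0.021), Mrpl15 (0.022) and Mrpl44 (-0.068), and leaving out those marked probe sets turned those of Mrpl11 (0.031), Mrpl15 (0.10), Mrpl44 (-0.20), Rps19 (-0.088) and Rpl7 (-0.086). With the replicate block, 34 members were lower, 17 higher and 9050 of all genes were called. Same-numbered arrays correlated at 0.097 to 0.32 in their deviations, and arrays of unlike number at -0.23 to 0.13. Not every array correlated best with its own number: control replicate 3 did so with PFOS replicate 2. The main fit does not take the numbers as pairs, and whether same-numbered arrays share a structure was not tested. The number of arrays limits the precision, and a member with no call is not shown to be stable.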
